A study of Mus musculus with 9 samples.

Results

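The whey proteins and milk mucins described here are 6 genes, Wap, Lalba, Glycam1, Ltf, Trf and Muc1, out of 27962 gene names on a mouse expression array. They were chosen by name, and every probe that the array design assigns to one of them was taken, which gave 9 of 41174 probes: 2 each for Wap, Ltf and Muc1 and 1 each for Lalba, Glycam1 and Trf. Mammary gland number 4 was collected from 9 dams on lactation day 2 (L2), 4 wild type (WT) and 5 carrying a transgene that expresses human NAG-1 in all tissues (hNAG-1), the protein also known as GDF15. The strain background is labelled C57BL/7 for all 9 dams, which may be a typing error. The study took glands for RNA work from a breeding study, after the last of several litters, but its methods do not repeat this for the array dams. The study kept 2 transgenic lines and worked mainly with one of them, and the line of each dam on the arrays was not given in the sources used here. RNA from each gland was hybridized to 1 Agilent array in 1 color, so each dam is 1 sample, and the values are spot intensities, in arbitrary units, divided by the array's own 75th percentile and multiplied by a common value of 797 (scaled intensity).

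Milk whey is the fluid that remains once casein micelles and fat are removed, and in lactation the secretory cells of the alveoli devote much of their RNA to a small set of secreted proteins. Transcription of these genes is driven by prolactin through the transcription factor Stat5, together with glucocorticoids and the epithelial factor Elf5, and it climbs around birth. Wap encodes whey acidic protein, an abundant whey protein of rodents, and Lalba encodes alpha-lactalbumin, which turns a galactosyltransferase into lactose synthase. Ltf and Trf encode lactoferrin and transferrin, related iron-binding proteins that mouse mammary epithelium secretes. Glycam1 encodes a mucin-like glycoprotein of milk that is also made by the venules of lymph nodes, and Muc1 encodes the transmembrane mucin of the apical membrane that travels into milk on the fat globule.

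The sequences below are the 60-base stretches of transcript that the arrays read, and they are shown because each value in the text is the signal on one of them. They are given 5′ to 3′ in lower case, with the positions that the array design lists on mouse build mm7. For Wap and Ltf the brighter probe stands for the gene, and for Muc1, the gene with the largest genotype difference, both probes are shown.
Wap A_51_P407704, chr11:6588821-6589195, minus strand: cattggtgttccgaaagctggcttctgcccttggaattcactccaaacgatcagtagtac
Lalba A_51_P156232, chr15:98465449-98466288, minus strand: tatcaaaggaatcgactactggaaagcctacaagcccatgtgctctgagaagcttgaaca
Glycam1 A_52_P602847, chr15:103551726-103551785, minus strand: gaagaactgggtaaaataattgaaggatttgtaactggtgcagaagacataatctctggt
Ltf A_52_P15388, chr9:110738071-110738130, plus strand: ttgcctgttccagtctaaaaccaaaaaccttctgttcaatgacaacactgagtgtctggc
Trf A_51_P362638, chr9:102929342-102929957, minus strand: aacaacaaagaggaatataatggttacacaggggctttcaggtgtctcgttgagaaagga
Muc1 A_51_P467346, chr3:89357452-89357511, plus strand: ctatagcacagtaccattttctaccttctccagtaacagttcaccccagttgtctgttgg
Muc1 A_52_P58208, chr3:89357590-89357747, plus strand: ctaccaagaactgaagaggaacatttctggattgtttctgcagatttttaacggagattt
The other Wap probe, A_51_P407705, and the other Ltf probe, A_51_P188141, lie at chr11:6587487-6587510 and chr9:110733462-110736512. The listed span of the Wap, Lalba, Trf and second Muc1 probes shown is longer than the probe itself. Exon and UTR annotation of build mm7 was not used here.

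The arrays differed in overall brightness, in slide and in cell content, and these facts touch every result below. The 75th percentile of the deposited intensity ran from 533 in hNAG-1 1 to 1185 in WT 2. Of the 3 slides, the first carried only WT 1 and the second only hNAG-1 dams (numbers 1 to 4), while WT 2, WT 3, WT 4 and hNAG-1 5 shared slide 3, the one slide on which genotypes can be compared. All 12 luminal epithelium markers were well above background on all 9 arrays, as the labelled tissue requires, and their mean log2 deviation was lowest in WT 2 (-0.56), against -0.17 to 0.35 in the other dams. WT 2 also carried the highest summed intensity of 14 lymph node lymphocyte markers, 90134 against 2755 to 15162 in the other dams, and hNAG-1 4 the highest summed intensity of 11 neutrophil markers, 83183 against 1408 to 5839. In whole tissue, fewer cells of a type and less RNA per cell cannot be told apart.

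Muc1 was the gene of the 6 with a genotype difference beyond the spread between dams in the single-probe tests of scaled values, which ignore slide. On probe A_51_P467346 the scaled intensity was 2438, 1932, 2467 and 2652 in WT 1 to 4, and 2845, 5716, 4038, 3224 and 2849 in hNAG-1 1 to 5. Every hNAG-1 dam lay above every WT dam, with hNAG-1 2 highest and WT 2 lowest. The WT dams averaged 2372 ± 308 (SD, n = 4), and the hNAG-1 dams 3735 ± 1210 (SD, n = 5). The difference was 0.61 on the log2 scale (SE 0.23, 95% interval 0.09 to 1.13), a 1.53-fold difference, with an unadjusted p of 0.0262 in limma and 0.0238 in a two-sided exact permutation test.

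The second Muc1 probe, A_52_P58208, gave nearly the same order of dams. Its scaled intensity was 2451, 1847, 2591 and 2578 in WT 1 to 4, and 3088, 5084, 3775, 2897 and 2725 in hNAG-1 1 to 5. The genotypes again did not overlap. The difference was 0.54 on the log2 scale (SE 0.22, 95% interval 0.06 to 1.03), with an unadjusted p of 0.0316 in limma and 0.0159 in the exact permutation test. The log2 ratio of the 2 Muc1 probes had an SD of 0.10 over the 9 arrays, so the probes read the same RNA with a spread well under the genotype difference. They are not independent evidence, since both come from the same 9 RNA samples.

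Neither Muc1 probe passed after Benjamini-Hochberg adjustment over all probes, with an adjusted p of 0.661 in limma for both. Of the 9 probes described here, 2 had an unadjusted p under 0.05, both of Muc1 and both higher in hNAG-1, against 5.6% of all 41174 probes, 1.15% with the higher level and 4.45% with the lower level in hNAG-1. These shares by direction turned with the scaling: of the probes with such a p, 20.5% were higher in hNAG-1, against 72.4% with median scaling, 57.5% with quantile normalization and 2.86% without scaling. The genotypes did not overlap for 1.35% of all probes, 0.658% with hNAG-1 higher and 0.695% with hNAG-1 lower. A log2 difference as large as that of the brighter Muc1 probe, or larger, was found for 2.65% of all probes. The brighter Muc1 probe also had an unadjusted p under 0.05 in limma together with a fold of 1.5 and an intensity of 65, the fold and intensity limits of the study, which 926 probes (2.25%) met in either direction and 0.313% with hNAG-1 higher. With the p of the methods' own test in place of limma's, 501 probes met the same limits. With unscaled intensities the Muc1 differences were 0.46 and 0.40, the genotypes overlapped, and the exact permutation p was 0.214 and 0.262. On that scale none of the 9 probes had an unadjusted p under 0.05 in limma, against 5.02% of all probes, and none was free of overlap, against 0.554%. The lowest exact permutation p on that scale was 0.0635, for the brighter Wap probe, at a log2 difference of -0.09, followed by 0.103 for Glycam1 at -0.18.

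**Figure D1:**
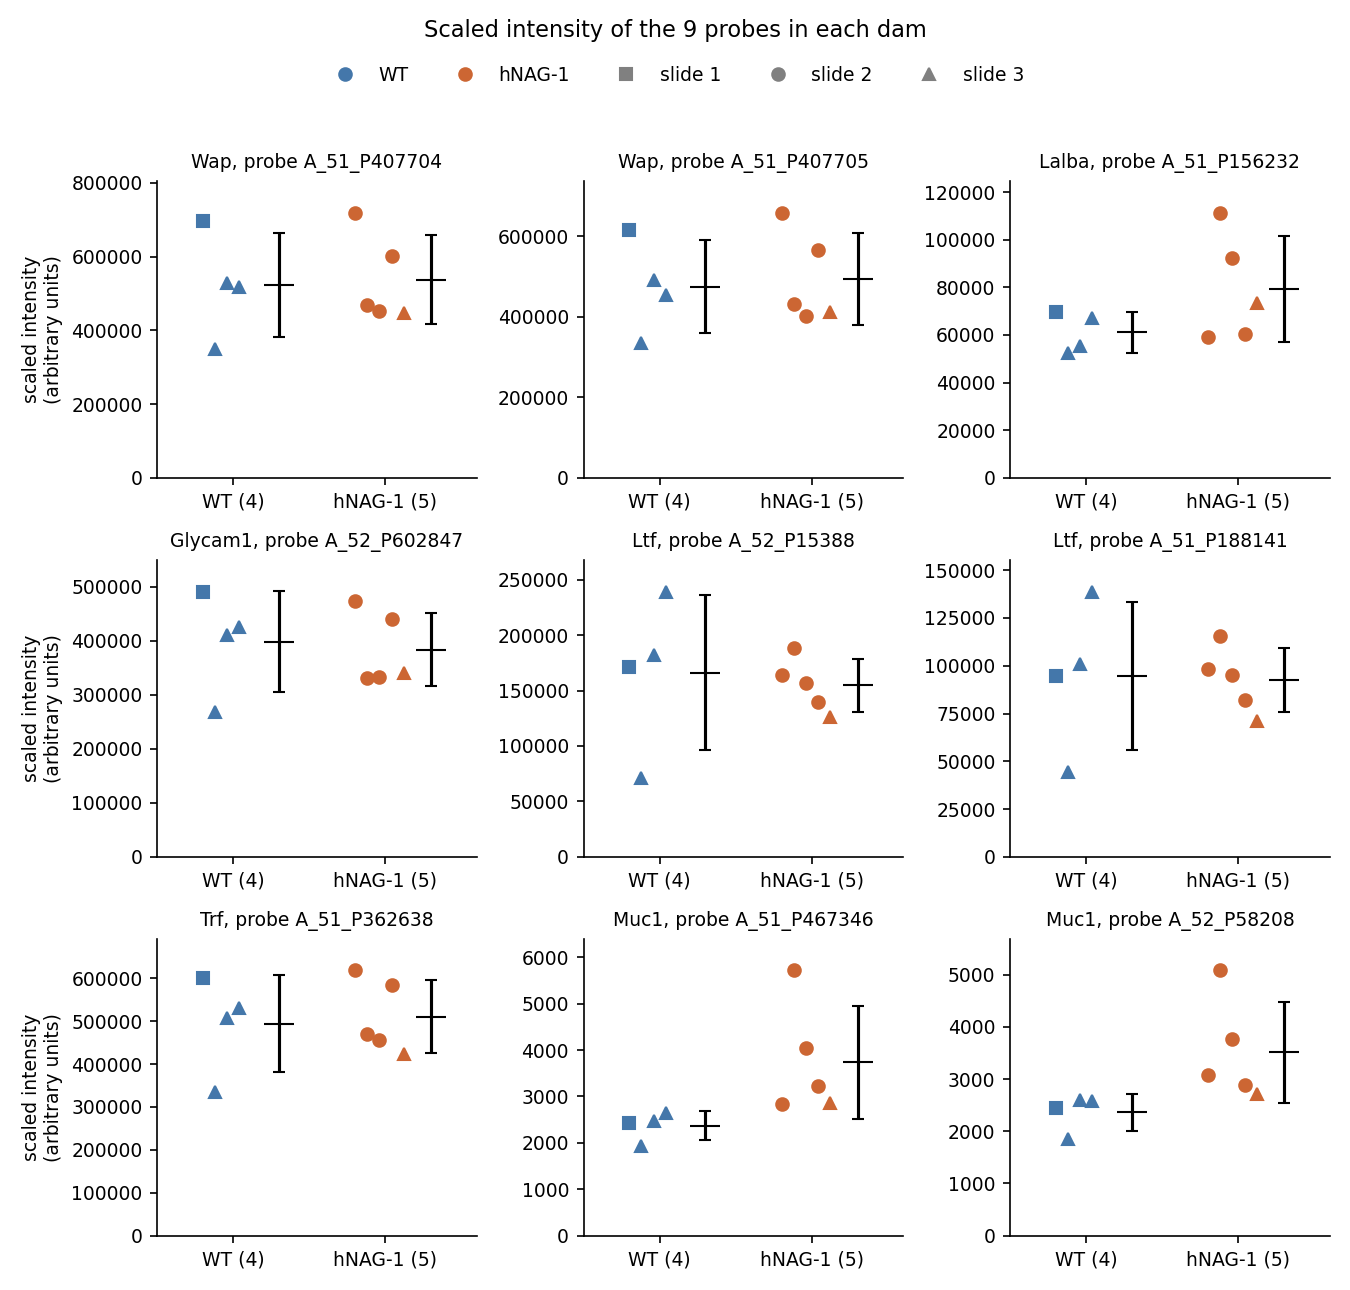
Scaled intensity (arbitrary units, linear axis from 0) of each of the 9 probes in each dam, with WT in blue and hNAG-1 in orange and the marker shape giving the slide. Black bars are the mean ± SD of a genotype (4 WT and 5 hNAG-1 dams). The genotypes separate on both Muc1 probes, with hNAG-1 2 highest, and overlap on the other 7 panels, where WT 2 is the lowest dam.

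On slide 3, the slide with both genotypes, hNAG-1 5 read 2849 and the WT dams 1932 to 2652 on the brighter probe, so the single hNAG-1 dam stood just above its slide mates. With slide as a block the differences were 0.29 (SE 0.41) and 0.24 (SE 0.38). Every log2 difference with slide as a block, here and for the other genes, equals that of slide 3 alone. It so rests on hNAG-1 5 against 3 WT dams, while the SE also uses the spread among the dams of slide 2. The other hNAG-1 dams, on slide 2, have no WT dam beside them, and for those slide and genotype cannot be told apart. Without WT 2 the differences were 0.52 and 0.43, with an unadjusted p of 0.0715 and 0.0874 in limma. Without hNAG-1 3 they were 0.57 and 0.51, with an unadjusted p of 0.055 and 0.0639. Without hNAG-1 2, the dam with the highest level, they were 0.44 and 0.40, with an unadjusted p of 0.0393 and 0.0568, and without WT 1 the second probe had an unadjusted p of 0.0505. Set against the luminal epithelium markers of the same array, the differences were 0.49 and 0.42 with an exact permutation p of 0.0794 and 0.0635, and 3 and 4 of the 5 hNAG-1 dams lay above every WT dam.

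Lalba, which supplies the regulatory subunit of lactose synthase, had the next largest difference, within the spread between dams. Its scaled intensity was 69730, 52376, 55391 and 66976 in WT 1 to 4, and 59208, 111353, 92413, 60534 and 73411 in hNAG-1 1 to 5. The 3 hNAG-1 dams 2, 3 and 5 lay above every WT dam, while hNAG-1 1 and 4 lay inside the WT range. The WT dams averaged 61118 ± 8519 (SD, n = 4), and the hNAG-1 dams 79384 ± 22304 (SD, n = 5). The difference was 0.34 on the log2 scale (SE 0.22, 95% interval -0.15 to 0.84), with an adjusted p of 0.661 in limma and an exact permutation p of 0.183. It was 0.20 without scaling, 0.56 with median scaling, 0.21 without hNAG-1 2 and 0.34 with slide as a block, and 9.03% of all probes had a difference at least as large. The 95% interval holds both no difference and a difference of the size seen for Muc1.

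Wap, the abundant whey protein of the mouse, had nearly the same mean level in both genotypes. On the brighter probe the scaled intensity was 695907, 349933, 528487 and 517461 in WT 1 to 4, and 718989, 468783, 451019, 602559 and 447028 in hNAG-1 1 to 5. The dams overlapped fully except for hNAG-1 1, which lay just above WT 1, and WT 2 was lowest. The difference was 0.06 on the log2 scale (SE 0.23, 95% interval -0.47 to 0.58), with an exact permutation p of 0.802. That probe was saturated in WT 3 and hNAG-1 5, and without those spots the difference was 0.13 (SE 0.29). The second probe, saturated on no array, gave 0.06 (SE 0.23) with an exact permutation p of 0.786. The deposited Wap intensity differed little between arrays of unequal brightness, as given later, so the interval is no limit on the change in Wap RNA.

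Trf, an iron carrier, read 601407, 335842, 508306 and 531408 in WT 1 to 4, and 618138, 469491, 456187, 584236 and 424015 in hNAG-1 1 to 5, a difference of 0.06 on the log2 scale (SE 0.21, 95% interval -0.40 to 0.53). The highest dam was again hNAG-1 1 and the lowest again WT 2. The deposited Trf intensity also differed little between arrays of unequal brightness, so its interval is no limit on the change in Trf RNA. After scaling, though not before it, Ltf varied more between dams than the other whey genes and mainly within WT. Probe A_52_P15388 read 171305, 70931, 182494 and 239385 in WT 1 to 4, and 163695, 188565, 157185, 139309 and 126203 in hNAG-1 1 to 5. All 5 hNAG-1 dams lay inside the WT range, which ran 3.37-fold from WT 2 to WT 4. The difference was 0.02 on the log2 scale (SE 0.33, 95% interval -0.72 to 0.75), and the second Ltf probe gave 0.06 (SE 0.31, 95% interval -0.64 to 0.76). The interval for Ltf is the widest of the 6 genes.

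Glycam1, the secreted mucin-like glycoprotein, read 491471, 267970, 410259 and 425091 in WT 1 to 4, and 473704, 331696, 333039, 440751 and 340924 in hNAG-1 1 to 5. All hNAG-1 dams lay inside the WT range, and hNAG-1 2, 3 and 5 lay below WT 1, 3 and 4. The difference was -0.04 on the log2 scale (SE 0.21, 95% interval -0.52 to 0.44), with an exact permutation p of 0.849. As for Wap and Trf, deposited values differed little between arrays, so this interval is no limit on the change in Glycam1 RNA. None of the 7 probes outside Muc1 had an unadjusted p under 0.05. The sign of the Wap, Trf and Ltf differences, positive after scaling, was negative without scaling, from -0.08 to -0.13, and negative with slide as a block, from -0.03 to -0.26, while that of Glycam1 was -0.18 and -0.08 there. Over all 9 probes 8 had a positive difference after scaling, against 47.9% of all probes.

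**Figure D2:**
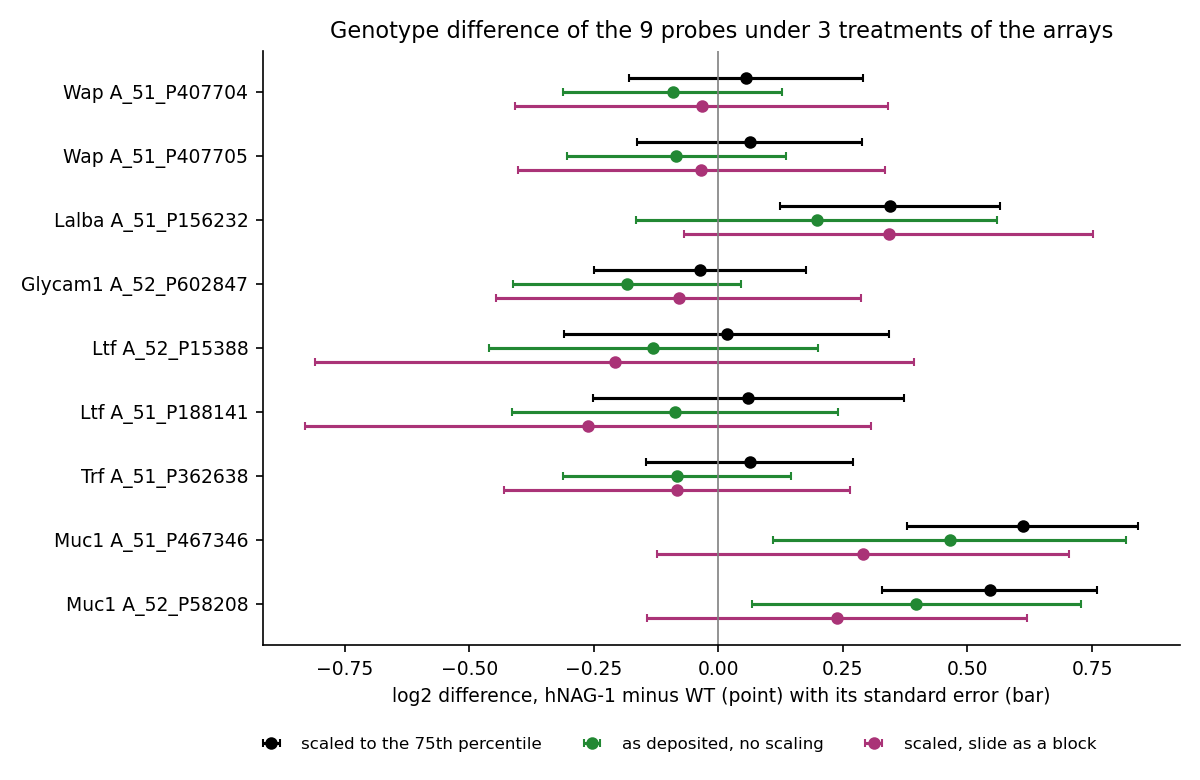
Log2 difference of hNAG-1 minus WT for each of the 9 probes (points) with its standard error (bars), after scaling to the 75th percentile (black), without scaling (green) and after scaling with slide as a block (purple). Lalba and Muc1 keep a positive difference in all 3 treatments, while the points of Wap, Ltf and Trf lie on both sides of 0.

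The members differed in how far they varied between arrays. The deposited, unscaled intensity of the brighter Wap probe spanned 480699 to 565434 over the 9 arrays, a ratio of the highest to the lowest array of 1.18, and its SD on the log2 scale was 0.07. The same ratio was 1.36 for Trf and 1.42 for Glycam1, against 2.39 for the brighter Ltf probe, 2.97 for Lalba and 3.31 for the brighter Muc1 probe. The brighter Wap probe was saturated on 2 arrays, WT 3 and hNAG-1 5, and no other probe of the 6 genes was saturated. The probes of Wap, Lalba, Glycam1, Ltf and Trf were read from the scanner's low-gain pass on all 9 arrays, and those of Muc1 from the high-gain pass on all 9.

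The deposited values of Wap, Trf and Glycam1 followed the brightness of the array less than those of Lalba and Muc1. Those of Ltf scattered widely. For each doubling of an array's 75th percentile, the deposited log2 intensity was 0.10 higher for the brighter Wap probe, 0.26 for Trf and 0.27 for Glycam1. It was 1.06 higher for Lalba and 0.87 for the brighter Muc1 probe, in fits over the 9 arrays. For the brighter Ltf probe it was 0.33, but with r = 0.27 that slope is imprecise, and r was 0.57 for Muc1. A slope of 1 is what scaling takes for granted. After scaling, the highest array exceeded the lowest 2.05-fold for Wap, 1.84-fold for Trf and 1.83-fold for Glycam1, with the dimmest array, hNAG-1 1, or WT 1 at the top and the brightest, WT 2, at the bottom. The SD of log2 values over the 9 arrays was 0.33 for Wap after scaling, against 0.07 before it, and 0.35 against 0.52 for Lalba. For the caseins, the main protein of milk, the highest deposited intensity exceeded the lowest from 1.16-fold for Csn1s2a to 1.70-fold for Csn3, and the part of spot saturation in these spans was not tested.

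**Figure D3:**
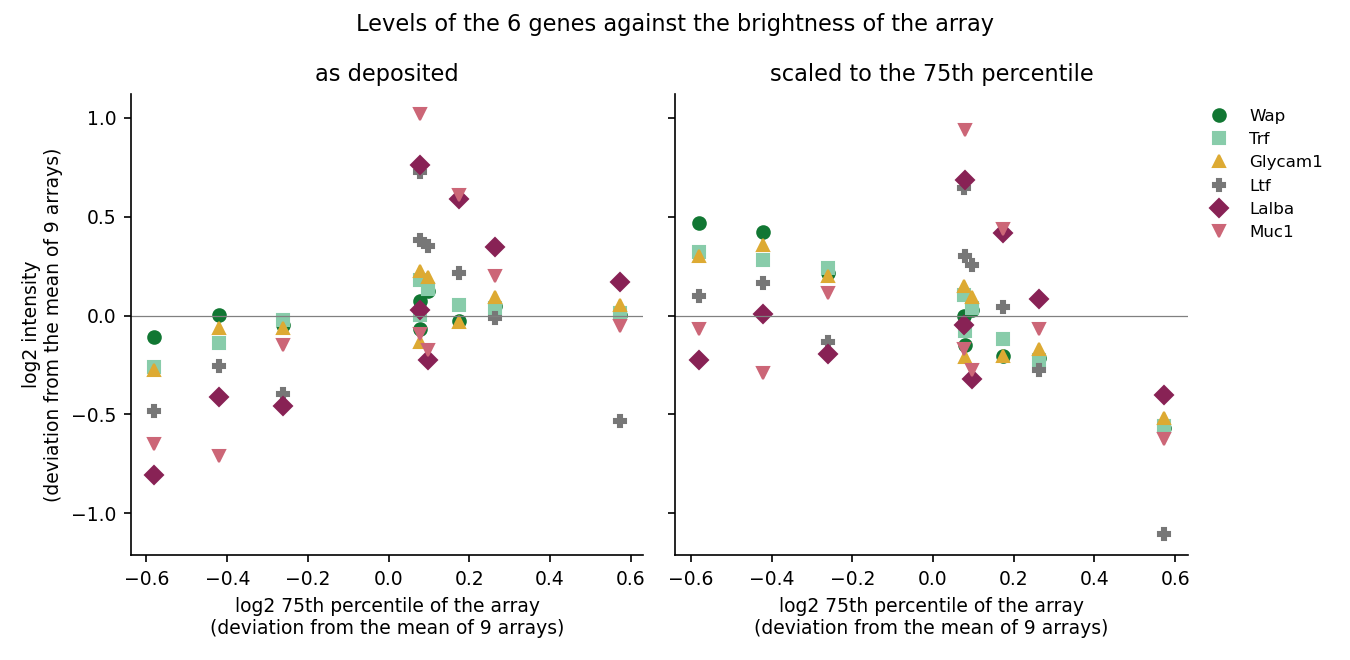
Log2 intensity of the brighter or only probe of the 6 genes on each of the 9 arrays, as a deviation from its mean, against the log2 75th percentile of the array, also as a deviation from its mean (WT 2 is the array at 0.57). As deposited (left), Wap, Trf and Glycam1 stay close to 0 while Lalba and Muc1 climb with the array and Ltf scatters widely, and after scaling (right) Wap, Trf and Glycam1 fall as the array gets brighter.

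Some of the members varied together across the dams, in a way that depended on the scaling. Across the 9 dams, 15 pairs of the 6 genes were compared on scaled log2 values, and 4 pairs had an adjusted exact permutation p under 0.05 for Pearson's r. Lalba and Muc1 had r = 0.892 (exact permutation p 0.00208, adjusted over the pairs 0.00778) and Spearman's rho = 0.733 (exact permutation p 0.0311, adjusted 0.117). Without hNAG-1 2 and hNAG-1 3, the dams farthest from the median of Lalba, r was 0.465, so the relation of these scaled values rests largely on those dams. Without the same dams r was 0.749 with median scaling, 0.447 with normexp background correction and -0.191 after quantile normalization. Once slide means were subtracted over the 8 arrays of slides 2 and 3, r was 0.943. On unscaled values r was 0.923 (exact permutation p adjusted over the pairs 0.00219) and rho 0.917 (adjusted 0.00984), and r was 0.868 without hNAG-1 1 and hNAG-1 2, but unscaled values of both genes share the brightness of the array. Within 1 slide there were at most 4 arrays, too few for a correlation.

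Wap, Trf and Glycam1 were the other 3 pairs, with r from 0.964 to 0.969 and an adjusted exact permutation p of at most 0.000372. Their scaled values share the array's 75th percentile as a divisor, which the deposited values followed only in small part. On unscaled values r was 0.948 for Wap with Glycam1 (adjusted exact permutation p 0.00219), 0.889 for Glycam1 with Trf (adjusted 0.00703) and 0.761 for Wap with Trf (adjusted 0.0571). Without the 2 arrays farthest from the median of the first gene named, r was 0.928, 0.682 and 0.495 in that order. Unscaled values of these genes also share the brightness of the array. After quantile normalization none of the 15 pairs passed, with r of -0.39 for Wap with Glycam1 and -0.45 for Wap with Trf.

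The genes most like each member over the 9 arrays were sought among 23076 probes well above background on all arrays, by Pearson's r of scaled log2 values, as a description. For Wap they were Lao1 (r = 0.997), Fabp3, the heart-type fatty acid binding protein (r = 0.996), and the beta-casein gene under its older name Csnb (r = 0.996). For Trf they were Wfdc3, a gene with whey acidic protein domains (r = 0.992), the transcript ENSMUST00000082405 and Lao1, and for Glycam1 they were the ribosomal protein gene Rps12 (r = 0.990), Ndufa1 of respiratory complex I and ENSMUST00000082405. All of these were also read from the low-gain pass on all 9 arrays. Scaled Wap, Trf and Glycam1 ran against the 75th percentile of the array (r = -0.98, -0.94 and -0.90), which divides every scaled value. The part of that divisor in these matches was not tested, so they are no measure of likeness in RNA between dams. For Lalba they were Fzd6, a Wnt receptor (r = 0.974), 2010107G23Rik and AK154840, and for Ltf Elp4 (r = 0.982), 6720401G13Rik and Uck2. For Muc1 they were X83328 (r = 0.990) and the genes of the sugar-metabolizing enzymes Pfkl, liver phosphofructokinase (r = 0.975), and Pgd, phosphogluconate dehydrogenase (r = 0.973). On unscaled values Pfkl (r = 0.989) and Pgd (r = 0.983) remained among the first 3 for Muc1 and 6720401G13Rik (r = 0.959) among those for Ltf, while Wap, Lalba, Trf and Glycam1 each had 3 other genes.

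Promoter sequence of build GRCm38.p6 was examined for 5 members, in the 250 bases before the start of the gene. The RefSeq promoter set used here held no sequence for Trf. The motif TTCNNNGAA, to which Stat5 binds, was searched on both strands and was present in 7.02% of 32851 promoters of that length, and among the 5 members in Glycam1. The motif TATAAA, also on both strands, was present in 12.4% of the promoters, and among the 5 members in Muc1. The first is shown for Glycam1 and the second for Muc1, the 2 members in which a motif was found, each 5′ to 3′ with the motif in capitals.
Glycam1, chr15:103565082-103565331, minus strand, motif starting 145 bases before the gene: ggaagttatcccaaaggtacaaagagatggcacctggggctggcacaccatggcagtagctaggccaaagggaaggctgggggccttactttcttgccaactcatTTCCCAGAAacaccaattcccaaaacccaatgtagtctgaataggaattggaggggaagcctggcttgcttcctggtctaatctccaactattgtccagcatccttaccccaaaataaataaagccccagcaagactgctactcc
Muc1, chr3:89228806-89229055, plus strand, motif starting 31 bases before the gene: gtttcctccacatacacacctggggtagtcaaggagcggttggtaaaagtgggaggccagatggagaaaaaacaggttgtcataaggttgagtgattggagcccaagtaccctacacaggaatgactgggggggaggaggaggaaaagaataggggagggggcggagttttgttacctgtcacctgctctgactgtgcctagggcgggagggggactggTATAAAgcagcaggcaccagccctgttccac
A match of letters is a description and not a binding site, and the windows of Wap, Lalba and Ltf held neither motif.

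The 6 genes were then set beside 16 lists of related genes, with 195 of 200 list entries measured and the brightest probe of each gene used. No listed gene had an adjusted p under 0.05 in limma, where 1 of all 41174 probes (0.00243%) did, and 6 of the 195 entries had an unadjusted p under 0.05, where 5.6% of all probes did, so single listed genes with such a p are given as values. The 5 caseins, which make up the micelles of milk, had a median log2 difference of 0.06, equal at this precision to the median of 0.06 of the 6 whey and mucin genes, while the median over all probes was -0.02. The scaling moves every list together: the median over all probes was -0.16 without scaling and 0.20 when arrays were scaled to their median, so the counts of higher and lower genes that follow are relative to that shift. Without scaling the caseins had a median of -0.09 and the 6 genes one of -0.09, and the caseins were at -0.10 without WT 2. Csn1s1, Csn2, Csn1s2a, Csn1s2b and Csn3 differed by 0.04, 0.06, 0.10, 0.13 and -0.00 on the log2 scale, with the lowest unadjusted p at 0.644 in limma. Of 21 other secreted or globule proteins of milk, 16 were higher and 5 lower in hNAG-1, with a median of 0.17, which was -0.05 without WT 2. Car6, a secreted carbonic anhydrase, differed most, at 1.09 on the log2 scale (SE 0.48, unadjusted p 0.0494 in limma), and this was 0.07 with slide as a block.

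B4galt1, the galactosyltransferase that alpha-lactalbumin joins in lactose synthase, averaged 81099 ± 33156 (SD) in the 4 WT dams, against 93160 ± 25324 (SD) in the 5 hNAG-1 dams, a log2 difference of 0.26 (SE 0.34). With slide as a block its difference was -0.40. Of the 9 genes of lactose synthesis and glucose supply beside Lalba, 7 were higher and 2 lower, with a median of 0.18, and -0.02 without WT 2. None had an unadjusted p under 0.05.

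Of 8 measured genes with whey acidic protein domains beside Wap, 2 were higher and 6 lower in hNAG-1, with a median of -0.15 that was 0.07 with median scaling. Slpi, an inhibitor of leukocyte proteases, averaged 22086 ± 8839 (SD) in the 4 WT dams, against 12065 ± 3787 (SD) in the 5 hNAG-1 dams, a log2 difference of -0.84 (SE 0.37, unadjusted p 0.0483 in limma), and -1.85 with slide as a block. Of 12 measured mucin genes beside the members, 7 were higher and 5 lower with a median of 0.05, which was -0.09 without scaling and -0.10 without WT 2. None had an unadjusted p under 0.05, and 3 (Muc2, Muc10 and Muc19) did not rise well above background on a single array. The largest difference of that list, 0.84, was that of Muc3, which was well above background on 1 array only. Muc15, another mucin of the milk fat globule, differed by 0.08 (unadjusted p 0.743 in limma), against 0.61 for Muc1.

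Among 14 genes of iron carriage and uptake, which sit beside Ltf and Trf, 10 were higher and 4 lower, with a median of 0.13 that was -0.01 without scaling, -0.04 without WT 2 and -0.05 with slide as a block. Slc40a1, the iron exporter ferroportin, was lower in hNAG-1 at 472 ± 88.3 (SD, n = 5) against 890 ± 298 (SD, n = 4) in WT, a log2 difference of -0.86 (SE 0.27, unadjusted p 0.00992 in limma), and it was -1.01 with slide as a block. Of 22 genes of prolactin and Stat5 signalling, 14 were higher and 8 lower, with a median of 0.04 (-0.10 without scaling), and of 23 measured genes of Stat3 signalling and involution, 9 were higher and 14 lower, with a median of -0.16 (0.06 with median scaling and 0.09 without WT 4). Socs3, a feedback inhibitor of cytokine receptors that is on both lists, differed most on each, at -1.18 (SE 0.53, unadjusted p 0.0533 in limma).

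Glycam1 is also a product of lymph node venules, and gland number 4 lies around a lymph node. Of 10 venule genes of selectin ligand synthesis and adhesion, 2 were higher and 8 lower in hNAG-1, with a median of -0.19 that was 0.03 with median scaling. Their summed intensity was 8626 to 15466 in WT and 7127 to 12100 in hNAG-1, and Sele stayed near background on all 9 arrays. Fut7, which fucosylates selectin ligands, differed most, at -1.46 (SE 0.77, unadjusted p 0.0911 in limma). WT 2, with the highest lymphocyte markers, had the lowest Glycam1 after scaling, 267970, while its deposited Glycam1 intensity of 398727 lay inside the range of 316707 to 448311 over the 9 arrays. The part of lymph node tissue in the Glycam1 values was not tested.

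**Figure D4:**
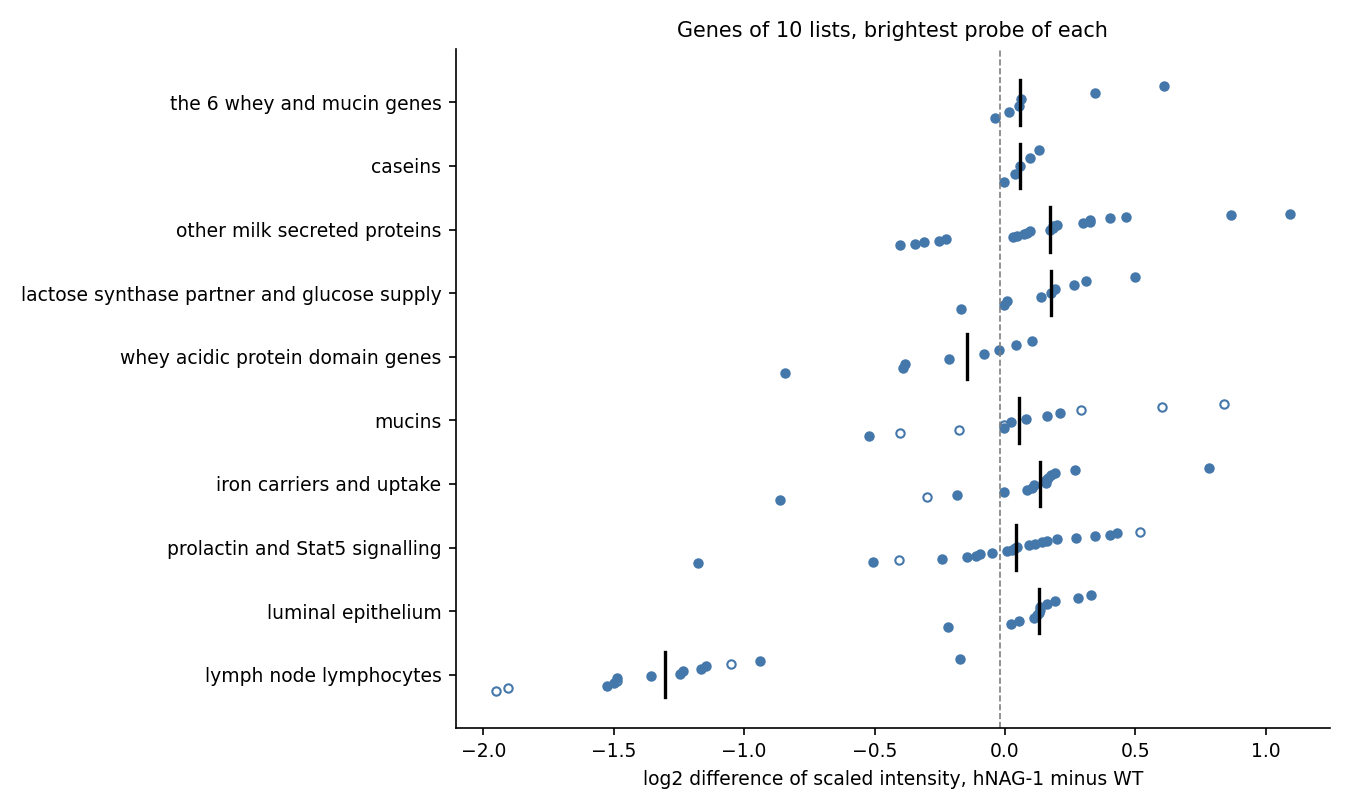
Log2 difference of scaled intensity, hNAG-1 minus WT, of each measured gene (brightest probe) of the 6 whey and mucin genes and of related lists, with genes well above background on all 9 arrays as filled points and the others as open points. Black lines are list medians and the dashed line is the median of all probes, -0.02. The caseins and most whey genes sit near 0, Lalba and Muc1 stand to the right of them, and the lymphocyte markers lie to the left with a median of -1.30.

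Markers of the cells that make up the gland were counted in the same way, and none had an adjusted p under 0.05 in limma. Of 12 luminal epithelium markers 11 were higher in hNAG-1, with a median of 0.13 (-0.02 without scaling, -0.04 without WT 2 and 0.38 with slide as a block) and the largest difference, 0.33, in Cldn7, a tight junction protein. All 9 myoepithelium markers were higher, with a median of 0.34 (0.11 without WT 2), and Myh11, smooth muscle myosin, differed by 0.48 (SE 0.16, unadjusted p 0.0151 in limma), with Krt17 also at 0.48. All 13 adipocyte markers were higher, with a median of 0.43, which was 0.12 without WT 1. Among them Pparg, the regulator of fat cell formation, differed by 0.43 (SE 0.16, unadjusted p 0.0233 in limma) without overlap of the genotypes, and Retn, resistin, differed most, at 1.00. All 6 endothelium markers were higher, with a median of 0.23 (-0.18 with slide as a block) and the largest difference in Tie1 at 0.48.

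All 14 lymphocyte markers were lower in hNAG-1, with a median of -1.30, and -0.38 without WT 2. Cd2, a T cell adhesion receptor, differed by -1.50 (SE 0.66, unadjusted p 0.0487 in limma), and Ccr7, a lymph node homing receptor, differed most, at -1.95. Of 11 neutrophil markers 5 were higher and 6 lower, with a median of -0.02 (0.19 with median scaling, -0.65 without hNAG-1 4 and 0.32 without hNAG-1 2) and with the largest difference, -1.94, in Cxcr2, and Elane stayed near background throughout. Of 6 macrophage markers 2 were higher and 4 lower, with a median of -0.05 (0.16 with median scaling and 0.18 without WT 2) and with the largest difference, -0.23, in Cd14. The part of any of these cell types in the Muc1 and Lalba values was not tested, beyond the luminal markers used as a divisor above.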

How the data were processed

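The authors deposited Agilent scanner output as intensity per feature, background-subtracted by Feature Extraction (9.5 in the submitters' processing notes, 9.5.3.1 in the file header) and not scaled between arrays. The deposited series table held the same intensities. Labelling used 500 ng of RNA and Cy3. Control features (1639 of 45018) were removed, values were divided by the 75th percentile of their array, spots of one probe were averaged, and log2 was taken. All 41174 probes were fitted with limma 3.58.1 (lmFit, eBayes, two-sided, no covariates) in R 4.3.3, with Benjamini-Hochberg adjustment over all of them. Single probes also had exact permutation tests over 126 splits, whose smallest p is 0.00794. No counts exist, so the number of arrays limits the precision, and 59.0% to 75.6% of probes were well above background. Scripts were tested on simulated data.

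The 6 genes and all lists were chosen with earlier results of these data known. Named genes are the members, the caseins, B4galt1, genes of the lists that had a p under 0.05 or differed most within a list, and the 3 genes most like each member; Muc15 was named after its value was seen. For 1 list, a gene this rule would name is not reported here. 2 listed symbols that led to the same probe were counted once. A RefSeq table of assembly GRCm38.p6 gave names and promoters. Alternatives were normexp (offset 50), quantile, median or no scaling, a floor of 20, outlier or saturated spots left out, a filter on dim probes, the methods' ANOVA, array weights, eBayes with a robust trend, slide as a block, slide 3 alone, each dam left out, a replicate block and, for lists, a mean over all probes of each gene. Leaving out WT 2 with hNAG-1 5, and the luminal markers as divisor, were chosen after seeing the data. The human transgene was not measured here, so the labels were not checked against it. Each array is 1 dam.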

Additional observations from a re-analysis of the deposited data

Results flagged for a closer look

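One value stood apart from its group among 50 groups of dams examined, and chance alone sets about 1 in 20 groups apart in this way. On Muc1 probe A_52_P58208, WT 2 lay below the other 3 WT dams by 0.836 of the whole WT range on the log2 scale. WT 2 read 1847 there, against 2451 to 2591 in WT 1, 3 and 4. Without WT 2 the genotype difference of that probe was 0.43 on the log2 scale. WT 2 was also the dam with the highest lymphocyte markers and the brightest array.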

How the results depend on the processing

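Precision is limited by 9 arrays and by 3 slides of which 1 holds both genotypes, and the deposited values of Wap, Trf and Glycam1 changed little between arrays. Lalba and both Muc1 probes kept a positive difference under every alternative run. For single probes under alternatives, 183 differences kept their sign and 51 changed it, no adjusted p was under 0.05 among them, and the cause was not tested. Without scaling the log2 differences were -0.092 and -0.084 for the Wap probes A_51_P407704 and A_51_P407705, -0.13 and -0.087 for the Ltf probes A_52_P15388 and A_51_P188141, and -0.084 for Trf. With slide as a fixed block, and equally on slide 3 alone, they were -0.033 and -0.034 for Wap, -0.21 and -0.26 for Ltf, and -0.084 for Trf. With array weights they were -0.0057 for the brighter Wap probe, -0.26 and -0.19 for Ltf, and -0.021 for Trf. Quantile normalization gave -0.027 for the second Wap probe and -0.055 for the brighter Ltf probe, normexp correction gave -0.0059 for the latter, and slide as a random block gave -0.010 for it. Median scaling gave 0.18 for Glycam1. Leaving out WT 2 and hNAG-1 5, an alternative chosen after seeing the data, gave -0.064 and -0.034 for Wap, -0.28 and -0.18 for Ltf, and -0.049 for Trf. Relative to the luminal markers, also chosen after seeing the data, the values were -0.066 and -0.058 for Wap, -0.10 and -0.061 for Ltf, and -0.058 for Trf. With single dams left out, the differences ran from -0.12 to 0.21 and -0.093 to 0.20 for the Wap probes, from -0.35 to 0.24 and -0.27 to 0.28 for the Ltf probes, from -0.11 to 0.17 for Trf and from -0.22 to 0.075 for Glycam1, while Lalba ran from 0.21 to 0.44 and the Muc1 probes from 0.44 to 0.70 and 0.40 to 0.63.

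Of the 9 probes, 2 had an unadjusted p under 0.05 as reported, against 0 without scaling, with slide as a fixed block, on slide 3 alone and with the replicate block, 1 without WT 2 and hNAG-1 5, and 0 to 2 with single dams left out (0 without WT 2 and without hNAG-1 3, 1 without WT 1 and without hNAG-1 2). Over all probes, 2307 had an unadjusted p under 0.05 in limma, against 1058 with normexp, 3686 with median scaling, 6272 with array weights, 1475 with slide as a random block, 3723 on slide 3 alone, 5298 without WT 2 and hNAG-1 5, and 1163 (without hNAG-1 2) to 5924 (without hNAG-1 5) with single dams left out. After adjustment 1 probe passed in limma, against 138 with slide as a fixed block, 0 to 215 with single dams left out (215 without hNAG-1 5), and 0 with normexp, quantile normalization, median scaling, no scaling, the methods' ANOVA, trend and robust estimation, array weights, slide 3 alone and without WT 2 and hNAG-1 5. By an unadjusted p with the fold and intensity limits 926 probes passed, against 338 with normexp, 580 with quantile normalization, 585 with a floor of 20, 501 with the methods' ANOVA, 2477 with array weights, 570 with slide as a random block, 2555 without WT 2 and hNAG-1 5, and 411 to 2688 with single dams left out. The share of higher calls among probes with an unadjusted p under 0.05 was 20.5%, and 52.6% with normexp, 57.5% with quantile normalization, 72.4% with median scaling, 2.86% without scaling and 90.8% with slide as a block, while the median over all probes moved from -0.02 to 0.20 with median scaling, 0.19 with slide as a block and -0.16 without scaling.

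No label pairs the dams by their numbers. Same-numbered dams deviated from their genotype means with correlations of 0.28, -0.20, -0.14 and -0.31, which cannot exclude a pairing. With the replicate block, which drops hNAG-1 5, the Muc1 differences were 0.70 and 0.63, with an unadjusted p of 0.0502 and 0.0607 in limma, Glycam1 was 0.0015, and 5447, 0 and 2573 probes passed without adjustment, with it and with the fold and intensity limits. The list medians moved by less than the spread between dams, except prolactin and Stat5 signalling at 0.26 with median scaling and endothelium at -0.18 with slide as a fixed block and on slide 3 alone. Of the 15 pairs of genes 4 passed, and 4 did with normexp, 6 with median scaling, 3 without scaling and 0 after quantile normalization, where r was -0.39 for Wap with Glycam1 and -0.445 for Wap with Trf.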
